A study of Homo sapiens and Mus musculus with 18 samples.

Results

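The genes described were WT1, its divergent neighbour WT1-AS, TCF21 and BNC1, followed across the human cultures of a study that derives mesothelial cells from embryonic stem cells. They were chosen by name. All 4 of the 4 genes were listed among 63677 gene identifiers in the 7 human libraries deposited one by one and among 56299 in a joint table of 6 human libraries. All 4 passed the filter on low counts in both sets. The mouse genes Wt1, Tcf21 and Bnc1 were not analysed here.

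Mesothelium is the epithelial sheet that covers the heart, lungs, liver and gut, and cells that leave it can become smooth muscle, fibroblasts and other mesenchyme. WT1 is a zinc finger transcription factor used as the standard marker of this sheet, of the epicardium and of podocytes and gonadal support cells. WT1-AS is a long noncoding RNA transcribed away from the WT1 start on the opposite strand. TCF21 is a basic helix-loop-helix transcription factor of epicardium and of the fibroblasts that form from it, and BNC1 is a zinc finger protein of keratinocytes, germ cells and mesothelium.

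The series held 18 samples, of which the 11 human RNA samples were used, and 4 mouse RNA and 3 ChIP samples were not analysed here. All human cultures came from WA09, a single line of human embryonic stem cells, by way of splanchnic mesoderm induced with WNT3a and BMP4. The smooth muscle culture (1 library) was that mesoderm left to grow on. MLC, mesothelium-like cells (2 libraries), were that mesoderm replated and grown to 18 days in total without FGF2 or Activin, in 20 µM of the TGF-beta receptor inhibitor SB431542 and 4 µM retinoic acid. MesoT-derived MLC (2 libraries) were MesoT cells replated in the MLC medium. MesoT FCS (2 libraries) were MesoT cells at passage 4 in 10% serum with 8 ng/ml FGF2. MesoT cells (2 libraries at day 22 and 2 at day 18), were the same mesoderm grown on in 25 ng/ml WNT3a, 50 ng/ml BMP4 and 4 µM retinoic acid. No label states that replicates came from separate cultures, so p-values measure the spread between these samples, which may be technical.

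The sequences around the transcription starts show how WT1 and WT1-AS are joined and how the other starts differ, and they were taken from RefSeq on GRCh38.p14. WT1 lies at chr11:32387775-32435539 on the minus strand and WT1-AS at chr11:32435518-32458769 on the plus strand, so the genes overlap by 22 bases. The capitals in the first pair mark those 22 bases, which are the same stretch read on opposite strands. TCF21 lies at chr6:133889113-133895537 on the plus strand and BNC1 at chr15:83255884-83284664 on the minus strand, and for these the 250 bases before the start are shown, with capitals for the motif GCGNGGGNG. That motif is the kind bound by zinc finger proteins of the WT1 and EGR type. The windows shown are chr11:32435518-32435789 (minus), chr11:32435518-32435567 (plus), chr6:133888863-133889112 (plus) and chr15:83284665-83284914 (minus), and each is written 5′ to 3′.
WT1: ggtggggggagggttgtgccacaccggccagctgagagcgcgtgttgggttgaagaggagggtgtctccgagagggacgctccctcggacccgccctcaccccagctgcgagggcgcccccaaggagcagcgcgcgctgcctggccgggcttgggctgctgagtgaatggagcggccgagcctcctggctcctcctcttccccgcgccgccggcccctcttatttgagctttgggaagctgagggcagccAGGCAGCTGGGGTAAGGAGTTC
WT1-AS: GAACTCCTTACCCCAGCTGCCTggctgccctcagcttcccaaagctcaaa
TCF21: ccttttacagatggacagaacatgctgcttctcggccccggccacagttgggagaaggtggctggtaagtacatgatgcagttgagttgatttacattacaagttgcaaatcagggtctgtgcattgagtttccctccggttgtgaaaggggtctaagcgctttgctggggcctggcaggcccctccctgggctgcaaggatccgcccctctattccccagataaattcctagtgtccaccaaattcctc
BNC1: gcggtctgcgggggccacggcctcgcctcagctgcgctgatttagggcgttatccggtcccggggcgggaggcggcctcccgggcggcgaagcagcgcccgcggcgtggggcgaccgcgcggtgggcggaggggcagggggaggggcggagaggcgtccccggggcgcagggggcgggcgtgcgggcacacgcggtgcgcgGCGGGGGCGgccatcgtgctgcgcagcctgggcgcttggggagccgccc

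The 250 bases before the start had a GC content of 81.6% at BNC1, 70.4% at WT1 and 52.8% at TCF21. Motifs were counted on both strands in 300-base windows, from 250 bases before to 50 after each start. GCGNGGGNG was present in 18.8% of 35116 such windows in the table, with 1 match in the main WT1 window, 1 at BNC1, 0 at TCF21 and 0 at WT1-AS. The E-box CANNTG, the kind of motif bound by helix-loop-helix dimers, was present in 68.7% of windows, with 3 matches at TCF21, 3 at WT1, 2 at WT1-AS and 1 at BNC1. GGGCGG was present in 45.0% of windows, with 7 matches at BNC1 and 1 at each of the other 3 genes. The WT1 and WT1-AS windows share bases, so their counts are not separate observations.

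Library totals ran from 21148477 to 70679258 counts, and levels are library-scaled counts (CPM) after TMM scaling within each set, so levels were not compared between sets or between genes. Both sets hold the day 18 MesoT libraries. For all 4 genes the day 18 counts of the sets differed by less than 0.5 on the log2 scale, as they did for 57.3% of 22110 genes. The library labelled smooth muscle stood apart. Its 8 basal keratinocyte markers summed to 2928 CPM, with 8 of 8 over 1 CPM, against 13.04 and 15.6 CPM in MLC, 3.17 and 1.28 CPM in MesoT FCS and 13.4 and 12.6 CPM in day 18 MesoT. Its 8 smooth muscle markers summed to 1048 CPM, against 205 and 181 CPM in MLC, 7241 and 1705 CPM in MesoT FCS and 1631 and 266 CPM in day 18 MesoT. In MLC the 10 mesothelial markers were over 1 CPM in 10 of 10 cases in replicate 1 and 9 of 10 in replicate 2. The smooth muscle library had 9 over 1 CPM, day 18 MesoT 7 and 8, and MesoT FCS 6 and 6. Their sums were 3509 and 2676 CPM in MLC and 5287 CPM in the smooth muscle library. In day 18 MesoT they were 4666 and 2753 CPM, and in MesoT FCS 6234 and 3091 CPM. These sums are mostly the keratins KRT8, KRT18 and KRT19. UPK3B had 55.8 and 38.1 CPM in MLC, 0.714 and 0.0558 CPM in MesoT FCS and 1.14 CPM in the smooth muscle library. In MLC against MesoT FCS, 5 of the 10 markers passed as higher and 1 as lower (all genes, 22.6% and 26.3%). In the smooth muscle library against MLC, 3 passed as higher and 2 as lower (all genes, 21.3% and 13%). In bulk RNA, fewer cells of a type and less RNA per cell cannot be told apart. Reads of WT1 and WT1-AS that fall in the 22 shared bases could be given to either gene, and the strand setting of the counting is not given in the sources used here.

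**Figure D1:**
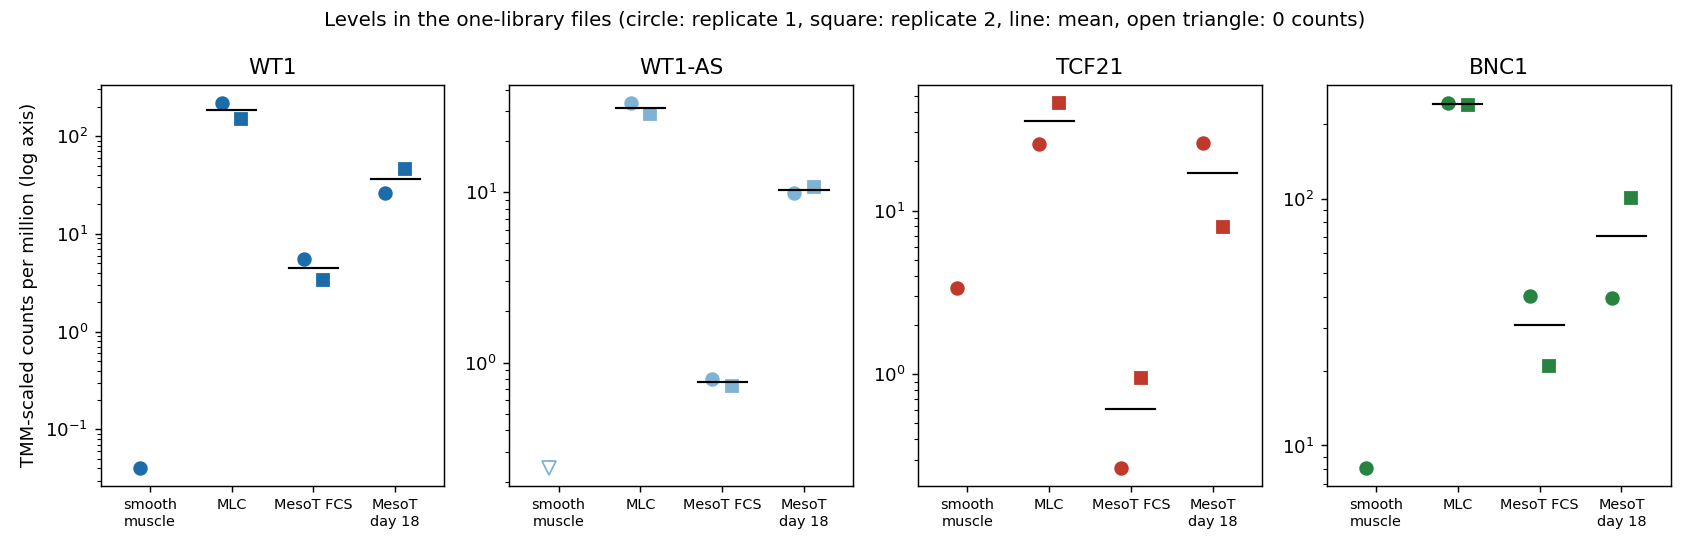
Level of each gene in the 7 libraries deposited one by one, as CPM on a log axis, with points for libraries, lines for group means and an open triangle for 0 counts. WT1 and WT1-AS were highest in MLC and lowest in the smooth muscle library, while TCF21 was lowest in MesoT FCS.

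WT1 was higher in MLC than in the day 18 MesoT cells they were compared with. Its level was 217 and 148 CPM in MLC, against 25.9 and 46.2 CPM in day 18 MesoT, and the groups did not overlap. The fitted log2 fold change was 2.34 ± 0.39 (SE; edgeR quasi-likelihood test, adjusted p = 0.00947). Of all 23049 genes tested, 24.6% passed in either direction and 7.83% passed as higher in MLC. As lower in MLC, 16.8% passed. WT1, WT1-AS and BNC1 passed as higher, 3 of the 4 genes, and 0 of the 4 passed as lower.

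WT1-AS was also higher in MLC. Its level was 33.3 and 28.7 CPM in MLC, against 9.89 and 10.7 CPM in day 18 MesoT, with no overlap. The log2 fold change was 1.59 ± 0.22 (SE; edgeR, adjusted p = 0.00519). Both calls were lost without MLC replicate 1, where the adjusted p in edgeR was 0.0685 for WT1 and 0.07 for WT1-AS.

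BNC1 had 243 and 239 CPM in MLC, against 39.6 and 101 CPM in day 18 MesoT. The groups did not overlap, and the day 18 replicates differed more between themselves than the MLC replicates did. The log2 fold change was 1.78 ± 0.50 (SE; edgeR, adjusted p = 0.0488), just inside the threshold of 0.05. Among the fits with 1 library left out, the call was lost without day 18 replicate 1 (adjusted p = 0.0641 in edgeR), without MLC replicate 1 (0.183), without MLC replicate 2 (0.18) and without the smooth muscle library (0.0533).

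TCF21 had 25.5 and 45.3 CPM in MLC, against 25.9 and 7.89 CPM in day 18 MesoT, so the groups overlapped. Its log2 fold change of 1.07 ± 0.68 (SE) did not pass (edgeR, adjusted p = 0.296), and its 95% interval ran from -0.59 to 2.72. It was 2.26 without day 18 replicate 1 (edgeR, adjusted p = 0.0596) and 0.44 without day 18 replicate 2 (0.593). The day 18 replicates also differed in other markers. Smooth muscle markers summed to 1631 CPM in replicate 1 and 266 CPM in replicate 2, fibroblast markers to 27716 and 13947 CPM, and endothelial markers to 275 and 102 CPM. The fibroblast sums are mostly the collagens COL1A1 and COL3A1 and the endothelial sums mostly KDR, while PDGFRA, a fibroblast receptor, was at 98.7 CPM in replicate 1 and 236 CPM in replicate 2 and CDH5, an endothelial cadherin, at 2.64 and 4.92 CPM. The part of these markers in the TCF21 difference was not tested.

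In MesoT cells kept in serum to passage 4, 3 of the 4 genes passed as lower than in day 18 MesoT and 0 as higher. WT1 had 5.58 and 3.41 CPM in MesoT FCS, against 25.9 and 46.2 CPM in day 18 MesoT, a log2 fold change of -3.00 ± 0.41 (SE; edgeR, adjusted p = 0.00778). WT1-AS had 0.804 and 0.726 CPM in MesoT FCS, against 9.89 and 10.7 CPM in day 18 MesoT, a log2 fold change of -3.74 ± 0.26 (SE; edgeR, adjusted p = 0.00226). For both genes the groups did not overlap. Of all genes, 14.4% passed as lower here and 13% as higher, 27.3% in either direction. TCF21 had 0.268 and 0.949 CPM in MesoT FCS, against 25.9 and 7.89 CPM in day 18 MesoT.

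The MesoT FCS values of TCF21 rest on 6 and 17 counts, and the groups did not overlap. Its log2 fold change was -4.83 ± 0.85 (SE; edgeR, adjusted p = 0.0138), and without MesoT FCS replicate 1 it missed the threshold (adjusted p = 0.0638 in edgeR). BNC1 had 40.3 and 21.1 CPM in MesoT FCS, against 39.6 and 101 CPM in day 18 MesoT, and the groups overlapped. The log2 fold change of -1.19 ± 0.49 (SE) did not pass (edgeR, adjusted p = 0.12), and its 95% interval ran from -2.40 to 0.018. It passed without day 18 replicate 1, at -1.76 (edgeR, adjusted p = 0.0215). The keratinocyte markers were nearly absent here, at sums of 3.17 and 1.28 CPM in MesoT FCS with KRT5, DSG3 and KRT6A at 0 in both libraries.

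All 4 genes were higher in MLC than in MesoT FCS, the cultures with the highest and lowest group means of the set among cultures with replicates. WT1 was higher in MLC by 5.34 ± 0.45 (log2, SE), WT1-AS by 5.33 ± 0.27, TCF21 by 5.90 ± 0.88 and BNC1 by 2.97 ± 0.52. The adjusted p values from edgeR were 0.000628, 0.000194, 0.00356 and 0.00621 in the same gene order. In this comparison 48.9% of all genes passed in either direction 22.6% as higher in MLC and 26.3% as lower, so a call here is common. No library, when left out, ended any of these 4 calls.

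The smooth muscle library had 1 count of WT1 and 0 of WT1-AS. Against day 18 MesoT, the count ratio of WT1 was 0.00114 with a 95% exact interval from 2.88e-05 to 0.00635, which covers counting error only, and edgeR gave an adjusted p of 0.0136. WT1-AS was at least 84.1-fold lower than in day 18 MesoT, taking 3 counts as the limit of the library (edgeR, adjusted p = 0.00671). TCF21 had 3.34 CPM in the smooth muscle library and did not differ past the threshold from day 18 MesoT (log2 fold change -2.34 ± 0.94, SE; edgeR, adjusted p = 0.161). BNC1 had 8.14 CPM there, and its log2 fold change of -3.11 ± 0.71 (SE) lay just outside the threshold (edgeR, adjusted p = 0.0517). BNC1 passed without day 18 replicate 1 (0.0162), without day 18 replicate 2 (0.0479), without the filter on low counts (0.00774), with the day 18 counts of the joint table (0.0173) and in DESeq2 (4.12e-05), and DESeq2 also called TCF21 (0.0402). In this comparison 8.67% of all genes passed, 3.58% as lower and 5.08% as higher.

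Against MesoT FCS, the count ratio of WT1 was 0.00882 with an interval from 0.000222 to 0.0497, and WT1-AS was at least 6.3-fold lower in the smooth muscle library. edgeR gave adjusted p values of 0.0116 and 0.00635. TCF21 was 2.49 ± 0.93 (log2, SE; adjusted p = 0.115) higher and BNC1 1.92 lower, at -1.92 ± 0.67 (adjusted p = 0.0982), and edgeR called neither. DESeq2 called both (0.0323 and 0.0179), and so did edgeR without the filter (0.0476 and 0.0392). Of all genes, 17.9% passed, 7.57% as lower and 10.3% as higher. Against MLC, WT1 had a count ratio of 0.000221 with an interval from 5.6e-06 to 0.00123, and WT1-AS was at least 255-fold lower (edgeR, adjusted p = 0.000875 and 0.00036). TCF21 and BNC1 were also lower in the smooth muscle library than in MLC, at -3.41 ± 1.00 (SE; edgeR, adjusted p = 0.0442) and -4.89 ± 0.78 (adjusted p = 0.00726). The TCF21 call was lost without MLC replicate 1 (adjusted p = 0.102) and without MLC replicate 2 (0.153), and 34.3% of all genes passed, 13% as lower and 21.3% as higher. BNC1 was thus at its lowest level in the library with the highest keratinocyte marker sum, and the single library is assumed to vary like the others.

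The order of group means in this set was the same for WT1 and WT1-AS: MLC, day 18 MesoT, MesoT FCS and the smooth muscle library, and each step passed in edgeR. For BNC1 the order was the same, but only the step between MLC and day 18 MesoT passed in edgeR. For TCF21 the order was MLC, day 18 MesoT, the smooth muscle library and MesoT FCS, and no neighbouring pair differed past the threshold in edgeR. The replicates of day 18 MesoT went apart in opposite ways: replicate 2 was higher than replicate 1 for WT1 and BNC1, and replicate 1 was higher for TCF21.

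**Figure D2:**
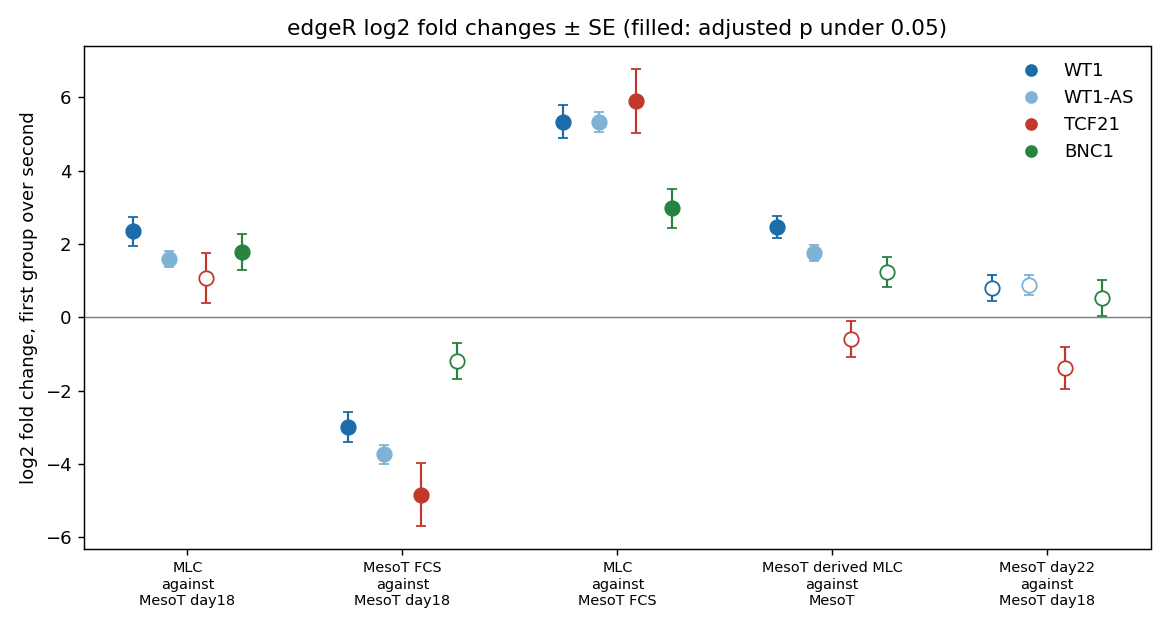
Fitted log2 fold change of each gene on the vertical axis, first group over second, with bars for the SE, in the 5 comparisons without the smooth muscle library. Filled points passed at an adjusted p under 0.05. WT1 and WT1-AS are filled in MLC against day 18 MesoT and in MesoT-derived MLC against MesoT, where TCF21 is open. BNC1 is also filled in the first of these. WT1, WT1-AS and TCF21 are filled in MesoT FCS against day 18 MesoT, and all 4 genes in MLC against MesoT FCS.

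MesoT cells replated in MLC medium had more WT1 and WT1-AS than MesoT cells of days 22 and 18 together. WT1 had 269 and 360 CPM in MesoT-derived MLC, against 56.9 and 94.4 CPM in day 22 MesoT and 32.4 and 54.7 CPM in day 18 MesoT, with no overlap. Its log2 fold change against the mean of both days was 2.46 ± 0.30 (SE; edgeR, adjusted p = 0.0162). In this comparison 9.94% of 22316 genes passed in either direction and 6.63% were higher, with 3.32% lower.

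WT1-AS had 53.0 and 65.6 CPM in MesoT-derived MLC, against 18.96 and 28.7 CPM at day 22 and 11.5 and 14.3 CPM at day 18, again with no overlap. Its log2 fold change was 1.76 ± 0.22 (SE; edgeR, adjusted p = 0.0169). Both calls were lost without day 22 replicate 1 (edgeR adjusted p = 0.0625 for WT1 and 0.0622 for WT1-AS), without MesoT-derived MLC replicate 1 (0.0501 and 0.0556) and without its replicate 2 (0.129 and 0.141). Against day 22 alone they also missed the threshold (0.0508 and 0.0582).

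BNC1 had 209 and 264 CPM in MesoT-derived MLC, against 79.2 and 163 CPM at day 22 and 51.0 and 117 CPM at day 18. The MesoT-derived MLC libraries lay above all 4 MesoT libraries, but the log2 fold change of 1.23 ± 0.41 (SE) did not pass in edgeR (adjusted p = 0.105), with a 95% interval from 0.24 to 2.22. DESeq2 called it, at 1.28 (adjusted p = 0.023). TCF21 had 10.2 and 6.03 CPM in MesoT-derived MLC, against 8.33 and 6.79 CPM at day 22 and 30.1 and 9.54 CPM at day 18. The groups overlapped, and its log2 fold change of -0.60 ± 0.50 (SE; edgeR, adjusted p = 0.455) had an interval from -1.81 to 0.62. It was -0.07 without day 18 replicate 1 (edgeR, adjusted p = 0.89), and against day 22 alone it turned to 0.10 (0.928).

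**Figure D3:**
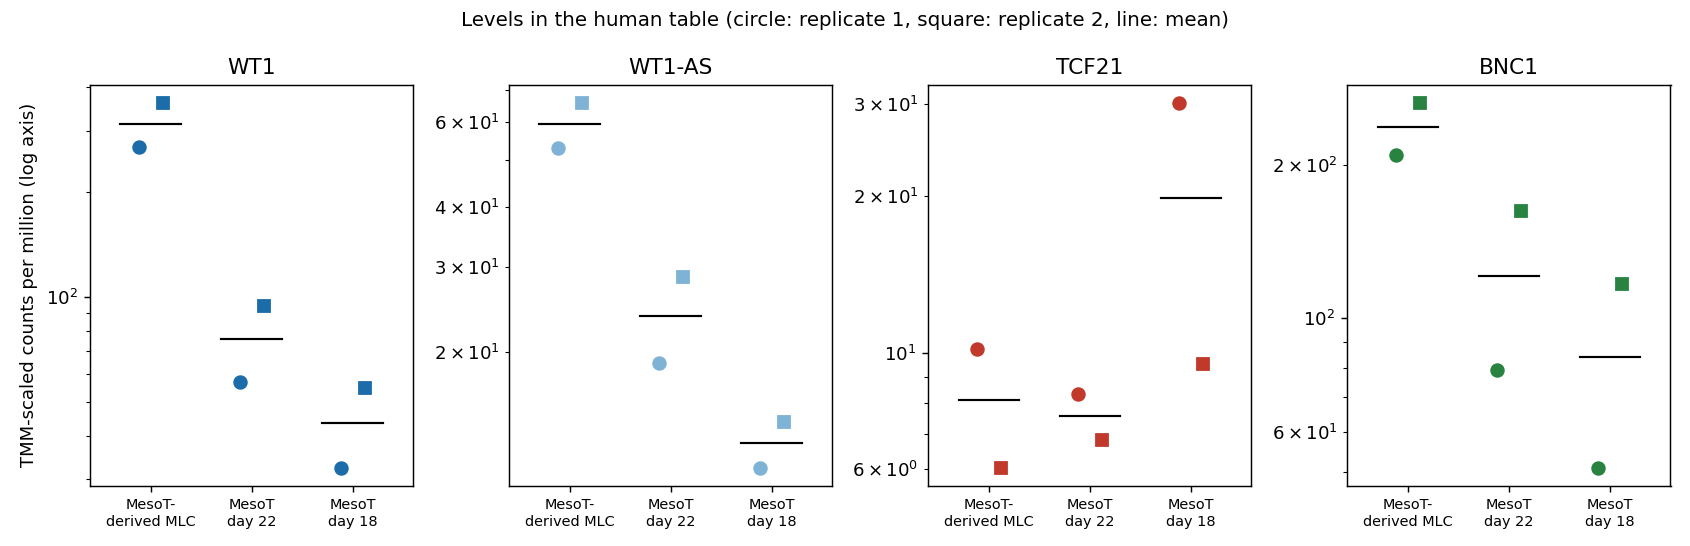
Level of each gene in the 6 libraries of the joint table, as CPM on a log axis, with points for libraries and lines for group means. WT1, WT1-AS and BNC1 were above all MesoT libraries in both MesoT-derived MLC libraries, and TCF21 was highest in 1 day 18 MesoT library.

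Most hepatocyte markers moved with WT1 in the MLC media. Their sum was 127 and 57.1 CPM in MLC, against 3.32 and 2.63 CPM in day 18 MesoT. Of the 6, 4 passed as higher in MLC and 0 as lower, beside 7.83% and 16.8% of all genes. In MesoT-derived MLC, 5 of 5 tested passed as higher, beside 6.63% of all genes. ALB was not among those tested. It had 0.444 and 0.274 CPM in MesoT-derived MLC, against 0.233 and 0.290 CPM at day 22 and 0.259 and 0.256 CPM at day 18. Whether these markers' source has a part in the WT1 difference was not tested. Markers of other WT1-positive cell types were summed too. Podocyte markers summed to 41.4 and 37.5 CPM in MLC, against 54.0 and 36.5 CPM in day 18 MesoT. Kidney progenitor markers summed to 26.3 and 30.0 CPM in MLC, against 2.77 and 21.6 CPM in day 18 MesoT, and gonadal support markers to 16.3 and 18.7 CPM in MLC, against 8.63 and 9.25 CPM in day 18 MesoT. Most of the kidney progenitor sum in MLC was EYA1, at 23.6 and 28.3 CPM, while SIX2 had 0.0661 and 0 CPM there. Of the 5 kidney progenitor markers tested in MLC against day 18 MesoT, 0 passed, beside 24.6% of all genes. Their median log2 fold change was -0.58 where all genes had -0.03.

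In MesoT-derived MLC some of these markers moved with WT1. Beside the counts below, 6.63% of all genes passed as higher and 3.32% as lower in this comparison. Podocyte markers summed to 133 and 218 CPM in MesoT-derived MLC, against 69.5 and 50.5 CPM in day 22 MesoT and 73.5 and 48.8 CPM in day 18 MesoT, and 2 of the 5 tested rose and 0 fell. NPHS1, the nephrin of the podocyte filter slit, had 67.2 and 83.4 CPM in MesoT-derived MLC, against 3.93 and 4.79 CPM at day 22 and 3.77 and 4.91 CPM at day 18, and CLIC5, an intracellular chloride channel protein, had 19.9 and 100.5 CPM in MesoT-derived MLC, against 3.03 and 1.63 CPM at day 22 and 1.07 and 1.28 CPM at day 18. For both genes every MesoT-derived MLC library lay above every MesoT library. The day 18 counts of NPHS1 differed between the sets. Gonadal support markers summed to 25.7 and 25.6 CPM in MesoT-derived MLC, against 12.52 and 12.01 CPM at day 22 and 10.8 and 10.2 CPM at day 18, and 1 of 4 tested rose, AMH, the anti-Müllerian hormone, by 1.49 ± 0.21 (edgeR, adjusted p = 0.0204). Kidney progenitor markers summed to 5.50 and 2.50 CPM in MesoT-derived MLC, against 7.63 and 31.0 CPM at day 22 and 3.92 and 24.9 CPM at day 18, and 0 of 4 tested passed. The part of these markers in the WT1 difference was not tested.

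Between day 22 and day 18 of MesoT culture 0 of 22316 genes passed in edgeR (0%), and 171 had an unadjusted p under 0.05. DESeq2 called 0 genes. WT1 had 56.9 and 94.4 CPM at day 22, against 32.4 and 54.7 CPM at day 18, with no overlap. WT1-AS likewise had no overlap, at 18.96 and 28.7 CPM at day 22, against 11.5 and 14.3 CPM at day 18. The log2 fold changes were 0.80 ± 0.36 for WT1, 0.88 ± 0.27 for WT1-AS, -1.39 ± 0.57 for TCF21 and 0.53 ± 0.49 for BNC1 (SE), each with an edgeR adjusted p of 1.

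Fewer WT1-AS counts per WT1 count were found outside the MesoT libraries. The ratio was 15.3 and 19.4 WT1-AS counts per 100 WT1 counts in MLC, 14.4 and 21.3 in MesoT FCS and 38.2 and 23.1 in day 18 MesoT. In the joint table it was 19.7 and 18.2 in MesoT-derived MLC, against 33.3 and 30.4 in day 22 MesoT and 35.6 and 26.2 in day 18 MesoT. In MLC, MesoT FCS and MesoT-derived MLC every library lay below every MesoT library of its set. The MesoT FCS ratios rest on only 18 and 13 WT1-AS counts, beside 125 and 61 WT1 counts. Counting error is therefore large there, and the lack of overlap is uncertain for MesoT FCS. The ratios were not tested, and both genes come from the same libraries.

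**Figure D4:**
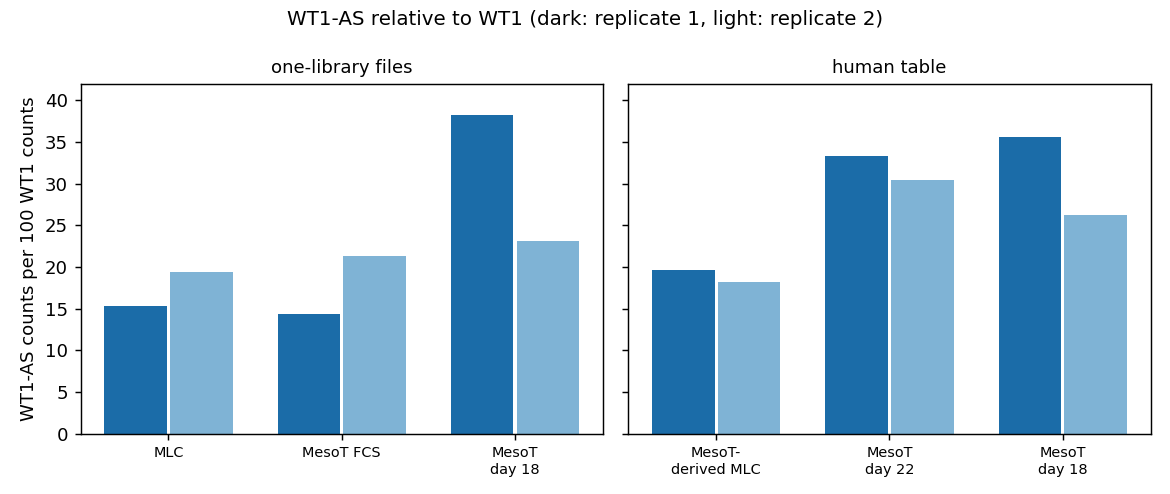
WT1-AS counts per 100 WT1 counts as a bar for each library, by group, without the smooth muscle library, which had 1 WT1 count. The MesoT libraries lie at 23.1 or higher, and the MLC, MesoT FCS and MesoT-derived MLC libraries at 21.3 or lower.

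Genes with the profile most like each member were found by the smallest root mean square distance of log2 CPM, centred within each set, over 13 library columns (day 18 MesoT is in both sets) and 12580 genes. The nearest to WT1 were WT1-AS at 0.534, the limb and heart factor TBX5 at 1.00, the phosphodiesterase PDE11A at 1.05, OLFML1 at 1.22 and ARHGAP20 at 1.23, where the median of all genes was 2.76. BNC1 ranked 16 and TCF21 1191 in that order. For TCF21 the nearest were METTL7A at 0.510, PCDH17, a protocadherin, at 0.589, CHGB, a granin, at 0.692, GCNT2 at 0.730 and SEMA6D, a semaphorin, at 0.741, and WT1 ranked 11561. The nearest to BNC1 were MTARC1 at 0.496, ATF7IP2 at 0.506, CCDC150 at 0.540, SFXN2 at 0.543 and MYRF at 0.566. The nearest to WT1-AS, after WT1, were PDE11A at 0.731, the complement protease CFI at 0.908, ARHGAP20 at 0.915 and LINC02381 at 0.959.

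For WT1 the median distance of all genes was 2.76 with the smooth muscle library and 1.81 without it, but for TCF21 it was 1.92 and 1.97. Most of the nearest genes changed without the smooth muscle library. Without it, 1 of the 5 nearest genes was shared for WT1, 1 for WT1-AS, 2 for TCF21 and 1 for BNC1. WT1-AS then lay at 0.411 from WT1 and ranked 1 for it, while WT1 ranked 4 for WT1-AS, whose nearest gene was PARD6B at 0.283. BNC1 then ranked 47 for WT1, and WT1 ranked 1413 for TCF21.

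**Figure D5:**
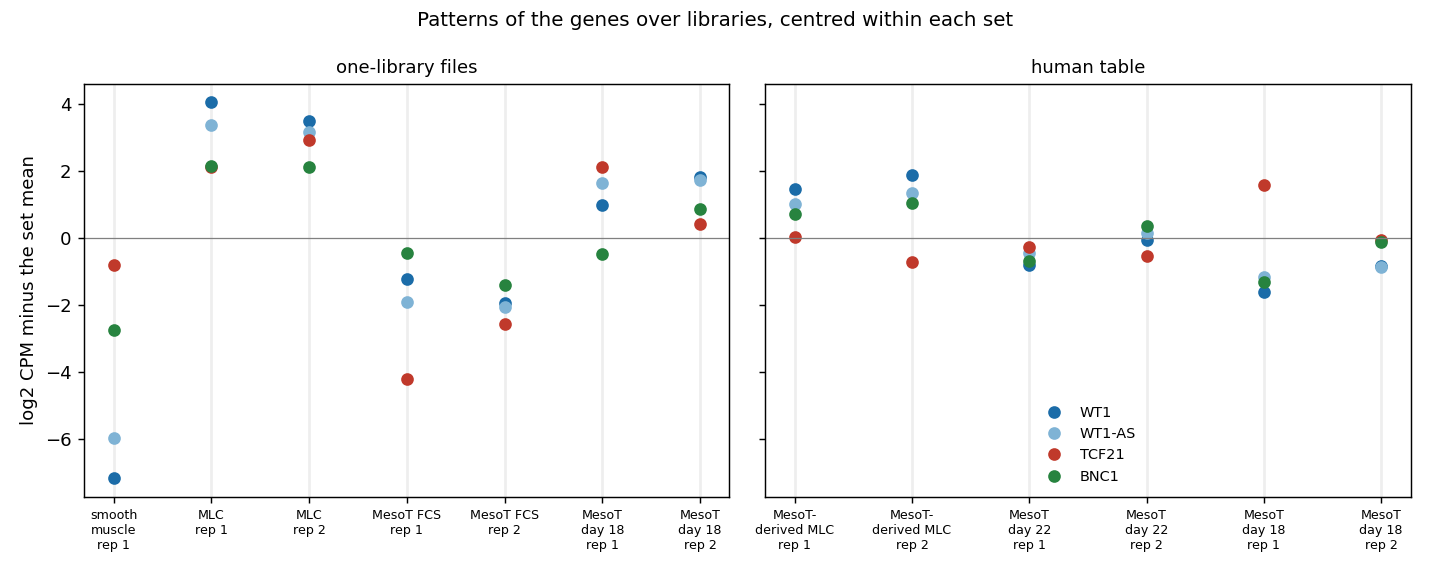
Log2 CPM of the 4 genes, centred within each set, across the 13 library columns. TCF21 departs most from WT1 in the smooth muscle library (-0.81 for TCF21 and -7.16 for WT1), in day 18 MesoT replicate 1 of the joint table (1.58 and -1.60) and in MesoT FCS replicate 1 (-4.22 and -1.23).

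Other transcription factors of mesothelium, epicardium and coelomic mesoderm were counted first. In MLC against day 18 MesoT, 7 of 20 rose and 1 fell, beside 7.83% of all genes higher and 16.8% lower, with a median log2 fold change of 0.92 where all genes had -0.03. TBX5 rose by 4.26 ± 0.41, HAND1, a heart and mesoderm factor, by 4.07 ± 0.18, while SOX9, a chondrocyte and progenitor factor, fell by 2.18 (edgeR, adjusted p = 0.00155, 0.00028 and 0.0154). LHX2 had a count ratio of 212 with an interval from 37.9 to 8390. In MesoT FCS against day 18 MesoT, 1 of 20 rose and 3 fell, beside 13% of all genes higher and 14.4% lower, with a median of -0.25 where all genes had -0.16. GATA5, an epicardial factor, fell by 6.52, ISL1, a progenitor factor, fell by 3.53, and NR2F2, a nuclear receptor, rose by 1.84 ± 0.38 (edgeR, adjusted p = 0.00389, 0.0191 and 0.0198). HAND1 had a count ratio of 0.00371 with an interval from 0.000763 to 0.0109. In MesoT-derived MLC, 1 of 19 rose and 2 fell, beside 6.63% and 3.32% of all genes. TBX5 rose by 1.32 ± 0.26, ISL1 fell by 4.41 and SOX9 fell by 1.81 (edgeR, adjusted p = 0.0364, 0.0381 and 0.0416).

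Genes reported as WT1 targets were counted likewise. In MLC 2 of 22 rose and 2 fell, with a median of 0.35 where all genes had -0.03, and the background was 7.83% higher and 16.8% lower, so neither count stands out from it. AMHR2, the receptor of anti-Müllerian hormone, rose by 2.00 ± 0.23, ITGA4, an integrin chain, fell by 5.49, and ALDH1A2, the enzyme that makes retinoic acid, fell by 2.73 (edgeR, adjusted p = 0.0048, 0.002 and 0.0266). NPHS1 rose by 2.58, but its day 18 counts differed between the sets, and with those of the joint table its log2 fold change was -1.01. In MesoT FCS 1 of 22 rose and 5 fell, with a median of -2.39 where all genes had -0.16, beside 13% of all genes higher and 14.4% lower. CDH1, the epithelial cadherin, fell by 8.51, NTRK2, a neurotrophin receptor, by 8.87 and ALDH1A2 by 7.35 (edgeR, adjusted p = 0.00163, 0.00953 and 0.00548), and AMHR2 was at least 149-fold lower. In MesoT-derived MLC 3 of 20 rose and 3 fell, where 6.63% of all genes passed as higher and 3.32% as lower. NPHS1 rose by 4.11 ± 0.20 (edgeR, adjusted p = 0.00721). The day 18 libraries had 102 and 134 NPHS1 counts in the joint table, but 8 and 9 in the libraries deposited one by one. ALDH1A2 rose by 3.17 ± 0.61, PODXL, a podocyte and mesothelial surface protein, rose by 2.32 ± 0.33, and WNT4 fell by 1.77 (edgeR, adjusted p = 0.0348, 0.0204 and 0.0299). ALDH1A2 thus fell in MLC and rose in MesoT-derived MLC, each against its own MesoT libraries, and the difference between the routes was not tested.

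Partners of the WT1 protein, relatives of the members and the neighbours of WT1 on chromosome 11 were counted in the same comparisons. In MLC, 1 of 10 partners rose and 0 fell, where 7.83% of all genes passed as higher. The partner that rose was the acetyltransferase EP300, by 0.66 ± 0.17 (edgeR, adjusted p = 0.0399). In MesoT FCS, 2 of 10 partners rose and 3 fell, where 13% of all genes passed as higher and 14.4% as lower. CITED2, a transcriptional coregulator, rose by 2.69 ± 0.31 and U2AF2, a splicing factor, by 1.01 ± 0.17, while TET2, which oxidises methylated cytosine, fell by 1.48 (edgeR, adjusted p = 0.00556, 0.0118 and 0.0111). TET3, a relative of TET2, fell by 1.55 (adjusted p = 0.0141), but its log2 fold change was -0.17 with the day 18 counts of the joint table. In MesoT-derived MLC 2 of 10 partners rose and 0 fell, where 6.63% of all genes passed as higher: WTIP by 1.19 ± 0.19 and CITED2 by 1.09 ± 0.20 (edgeR, adjusted p = 0.0234 and 0.0326).

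Of 9 dimer partners of TCF21 and relatives of the members, 2 rose and 1 fell in MLC (all genes, 7.83% and 16.8%). In MesoT FCS 2 rose and 1 fell (13% and 14.4%), and in MesoT-derived MLC 1 rose and 2 fell (6.63% and 3.32%). BNC2, the relative of BNC1, rose in both MLC cultures. It rose by 1.59 ± 0.23 in MLC (edgeR, adjusted p = 0.006) and by 2.01 ± 0.14 in MesoT-derived MLC (adjusted p = 0.00919). EGR1, a zinc finger factor that binds the same kind of motif as WT1, rose in MLC by 4.76 ± 1.24 (adjusted p = 0.0402). TCF4, a dimer partner of helix-loop-helix factors such as TCF21, fell by 1.75 in MesoT FCS (adjusted p = 0.0185). It also fell by 1.13 in MesoT-derived MLC (adjusted p = 0.0413). TCF3, another such partner, rose by 0.68 ± 0.18 in MesoT FCS (edgeR, adjusted p = 0.0415). MSC, a close relative of TCF21, rose by 5.28 ± 0.86 in MesoT FCS (adjusted p = 0.0155) and fell by 2.93 in MesoT-derived MLC (adjusted p = 0.0404), and it was at least 21-fold lower in MLC than in day 18 MesoT, where it had 26 counts.

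Of 13 neighbours of WT1, 2 rose and 2 fell in MLC (all genes, 7.83% and 16.8%), 0 rose and 2 fell in MesoT FCS (13% and 14.4%), and 0 passed in MesoT-derived MLC (9.94% in either direction). These counts are near the shares of all genes. In MLC the median was 0.10 where all genes had -0.03. PAX6, the eye and forebrain factor, fell by 5.40 and QSER1 rose by 0.75 ± 0.20 (edgeR, adjusted p = 0.00693 and 0.0431), while HIPK3, a kinase, fell by 1.24 in MesoT FCS (adjusted p = 0.0114). PRRG4 rose by 1.13 ± 0.29 in MLC (edgeR, adjusted p = 0.0389), but with the day 18 counts of the joint table its log2 fold change was 0.51. In MesoT FCS it had a count ratio of 0.00756 with an interval from 0.000912 to 0.0275. CCDC73 passed at -3.31 in MLC, but with the day 18 counts of the joint table its log2 fold change was 2.68. Of 33 genes of these lists named in the comparisons with day 18, 24 were counted alike in both sets and 31 kept their sign with the other day 18 counts. BNC2, LHX2 and MSC were among those not counted alike, and each kept its sign. WNT4, named in MesoT-derived MLC only, was not counted alike at day 18 either.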

How the data were processed

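Gene counts were used as the authors deposited them: 7 one-library count files and a joint table of 6 libraries, both raw, normalised apart by TMM. Per the submitters' processing notes, hg19, TopHat2 2.0.13, Bowtie2 2.2.9, Subread 1.4.2, featureCounts and MACS2 2.1.1 were named with no role, and the strand setting is not given in the sources used here. Identifiers were paired with symbols through the reference table (39699 of 63677 one-library and 37317 of 56299 joint-table identifiers), and 0 of 37991 mouse identifiers matched, so the mouse genes were not analysed here. Columns of other series not used numbered 0. The members and gene lists were chosen with earlier results of these data known.

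edgeR 4.0.16 (R 4.3.3, limma 3.58.1) fitted its quasi-likelihood test to all libraries of a set after filterByExpr (23049 and 22316 genes, 3 residual degrees of freedom each), with Benjamini-Hochberg adjustment over all genes at 0.05. Alternatives were DESeq2 1.42.0, RLE scaling, no filter, a replicate block, each library left out, and the other set's day 18 counts, the last added after seeing the data with the omission of the smooth muscle library. The fit was tested on simulated data. Genes named beside the 4 members were up to 4 per list and comparison by smallest adjusted p among those past the threshold, and the 5 nearest profiles with prior count 2 and mean log2 CPM of at least 1. Library totals of 21148477 to 70679258 counts limit the precision of genes with few counts, and intervals and the 3-count limit cover counting error only.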

Additional observations from a re-analysis of the deposited data

Results flagged for a closer look

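TCF21 in day 18 MesoT replicate 1 stood at 30.1 CPM, apart from the other 3 MesoT libraries of the joint table, which had 9.54, 8.33 and 6.79 CPM. Its gap to the nearest was 0.882 of the group's range, above Dixon's 95% critical value for 4 libraries. Chance marks about 1 in 20 such groups, and WT1, WT1-AS and BNC1 were not marked.

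TCF21 lay above the day 18 MesoT mean on one route to MLC and below it on the other. It passed the test neither in MLC against day 18 (edgeR, adjusted p = 0.296) nor in MesoT-derived MLC against days 18 and 22 together (0.455). By library, both routes overlapped day 18. MLC replicate 1 had 25.5 CPM, below day 18 replicate 1 at 25.9 CPM. MesoT-derived MLC replicate 1 had 10.2 CPM, above day 18 replicate 2 at 9.54 CPM. Against the day 18 mean of their own set, the MLC libraries were at 0.59 and 1.42 (log2) and the MesoT-derived MLC libraries at -0.96 and -1.72, so the routes differed by 2.35 on the log2 scale. Without day 18 replicate 1 the log2 fold change of MesoT-derived MLC against MesoT was -0.07, and against day 22 alone it was 0.10. The difference was not tested, and both sets hold the day 18 MesoT libraries. WT1, WT1-AS and BNC1 were above day 18 in all libraries of both routes.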

How the results depend on the processing

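Of 272 alternative values for the members, 238 kept their direction and their side of the threshold, and RLE scaling left all 32 members' values there. The causes of the other changes were not tested. With the replicate number as a block, BNC1 in MLC against day 18 was 1.81 (adjusted p = 0.0768), TCF21 in smooth muscle against MLC was -3.37 (0.0848), BNC1 in MesoT-derived MLC was 1.34 (0.0278) and smooth muscle against day 18 gave 527 calls. The labels share only a number: deviations of same-numbered libraries correlated at 0.557 for days 18 and 22 and at -0.064 to 0.073 for the other pairs of groups. Without the filter, BNC1 in smooth muscle against day 18 was -3.10 (0.00774), TCF21 against MesoT FCS 2.51 (0.0476) and BNC1 against MesoT FCS -1.91 (0.0392). With DESeq2, TCF21 and BNC1 in smooth muscle against day 18 were -2.35 (0.0402) and -3.12 (4.12e-05), against MesoT FCS 2.49 (0.0323) and -1.89 (0.0179), and BNC1 in MesoT-derived MLC was 1.28 (0.023), with 4614 and 4325 calls in smooth muscle against day 18 and in MesoT-derived MLC. With the day 18 counts of the joint table, calls were 9237 for MLC, 12757 for MesoT FCS and 7935 for smooth muscle against day 18, with BNC1 in the last at -3.04 (0.0173). MesoT-derived MLC gave 380 calls against day 18 only and 612 against day 22 only, where WT1 was 2.06 (0.0508), WT1-AS 1.32 (0.0582) and TCF21 0.10 (0.928).

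Leaving out 1 library gave ranges of 2.04 to 2.81 for WT1 and 1.49 to 1.70 for WT1-AS in MLC against day 18, 1.35 to 2.60 for BNC1 and 0.44 to 2.26 for TCF21 there, -5.96 to -3.78 for TCF21 and -1.76 to -0.37 for BNC1 in MesoT FCS, -3.65 to -2.28 for BNC1 in smooth muscle against day 18 and -3.77 to -2.94 for TCF21 against MLC, 2.24 to 2.67 for WT1 and 1.60 to 1.93 for WT1-AS in MesoT-derived MLC, and -0.081 to 1.24 for BNC1 at day 22 against day 18. Calls ranged from 1714 to 6601 for MLC and 2783 to 7845 for MesoT FCS against day 18, 4962 to 11217 for MLC against MesoT FCS, 2339 to 4292, 1850 to 2150 and 2505 to 2554 for smooth muscle against day 18, MesoT FCS and MLC, and 0 to 2995 for MesoT-derived MLC. Genes with few counts, such as TCF21 in MesoT FCS, are limited by depth.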
